A study of Mus musculus with 24 samples.

Results

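The ventrobasal complex (VB) and the dorsal lateral geniculate nucleus (dLGN) of control mice were compared at P4, on 3 VB arrays and 3 dLGN arrays of the 24 arrays in the series. The 6 arrays were those whose labels give the age P4, the control condition and one of the nuclei, and no measured value was used to choose them. All mice were wild type on a C57BL/6 background, and the controls kept their eyes. The VB and dLGN of P4 mice whose eyes had been removed before birth were also compared (embBE, 3 arrays each). So were the VB and dLGN of P0 controls (3 and 2 arrays). The P0 embBE arrays (3 VB and 4 dLGN) were not compared as groups. They entered the spread in the fits with P0 arrays and the choice of probe sets. Nuclei were microdissected from vibratome sections, each sample is described by the submitters as tissue pooled within a litter and condition, its RNA was amplified in 2 rounds, and 1 Affymetrix mouse array was used per sample. A label such as 24_2 names 1 VB array and 1 dLGN array at P4, and the labels do not say whether such a pair came from the same pups. P-values therefore measure the spread between these pools and arrays.

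The VB and the dLGN are first-order thalamic nuclei. The VB carries touch, including whisker signals, to the primary somatosensory cortex, and the dLGN carries vision from the retina to the primary visual cortex. Their relay neurons are glutamatergic and share a thalamic programme of transcription factors, while most GABAergic neurons near them lie in the reticular nucleus and the ventral lateral geniculate nucleus. During the first postnatal days thalamocortical axons settle in their cortical areas, guided by axon guidance receptors, adhesion molecules and matrix, so these gene groups were described together with ion channels, receptors, growth factors and cell type markers.

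Signals are RMA values on a log2 scale, so a difference of 1 is a 2-fold change. They compare arrays for 1 probe set and do not rank genes by abundance. A gene was called when its Benjamini-Hochberg adjusted p from limma was under 0.05 over all 18194 genes and its fold change at least 1.5. In a bulk sample, fewer cells of a type and less RNA per cell cannot be told apart.

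Some arrays stood apart in RNA quality. The gap between the 3′ and 5′ beta-actin control probe sets, which widens as RNA gets shorter, was 1.95 (24_2), 3.14 (36_3) and 2.30 (40_1) in VB arrays, against 2.21, 3.64 and 4.13 in dLGN arrays with the same labels. It was thus wider in the dLGN array of every label, and the Gapdh gap ran the same way (3.03, 3.47 and 3.40 in VB, 3.63, 4.52 and 4.37 in dLGN). Arrays VB 36_3 and dLGN 40_1 had the narrowest spread of signals of their group, with an SD of 2.26 and 2.19 over all probe sets, where the other 4 arrays had 2.29 to 2.41. The part of RNA quality in the results below was not tested beyond the 2 fits named with the counts.

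At P4, 260 genes were higher in the VB (1.43% of genes tested) and 191 were lower (1.05%), 451 in all (2.48%). The 3 VB arrays lay wholly on one side of the 3 dLGN arrays for each of the 451, and groups did not overlap for 12.7% of all genes. Called genes had a median log2 difference of 1.10 when higher and -0.92 when lower, while the median over all genes was -0.03. Over 4-fold, 26 genes were higher and 11 lower. At the threshold of the methods, a fold of at least 1.5 with an unadjusted p under 0.05, 872 genes passed (4.79%). Within labels, the VB array differed from the dLGN array by at least 1.5-fold in the called direction for 407 (24_2), 368 (36_3) and 394 (40_1) of the 451.

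The count depended on single arrays. It was 265 without VB 24_2, 295 without VB 40_1, 273 without dLGN 36_3 and 837 without dLGN 24_2, and 225 of the 451 genes kept their call whichever of the 6 arrays was left out. With the actin gap as a covariate, 683 genes were called and 384 of the 451 were among them. The share of calls higher in the VB was 45.1% in place of 57.7%. Of the called genes named below, Nr2f2, Lhx1, Efna2, Lrrc4, Lgr4, Tgfb3, Dbp, Bhlhe40, Kcnj10 and Cacng8 lost their call in this fit. Below, this fit and the next are given for a few genes only. Without the 3 arrays of widest actin gap (VB 36_3, dLGN 36_3 and dLGN 40_1), 349 were called, 265 of them from the 451, and 48.4% of calls were higher. This fit leaves 2 VB control arrays and 1 dLGN control array, dLGN 24_2, whose spread is assumed to be that of the other groups. With only the 6 P4 control arrays, without the embBE arrays, fewer genes were called. In that fit 26 of the 30 genes with the largest differences kept their call.

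The 15 largest increases in the VB ran from 3.71 down to 2.17 on the log2 scale. Ppp1r17, an inhibitory subunit of a protein phosphatase, had signals of 9.15, 10.15 and 10.21 in VB arrays, against 6.08, 5.94 and 6.37 in dLGN arrays (labels 24_2, 36_3 and 40_1, in this order throughout), a difference of 3.71 ± 0.29 (SE, adjusted p = 4.75e-05). Every VB array was thus well above every dLGN array. Tgfbi, a secreted matrix protein, had 9.11, 10.13 and 9.11 in VB and 6.07, 5.97 and 5.92 in dLGN (3.46 ± 0.26, adjusted p = 3.73e-05). Crabp2, which carries retinoic acid to its nuclear receptor, had 9.92, 9.05 and 8.14 in VB and 6.03, 5.43 and 5.46 in dLGN (3.39 ± 0.42). Its VB arrays spread widely but stayed apart from the dLGN. Plxna2, a semaphorin receptor of growth cones, had the smallest adjusted p among these genes (8.11e-07): it read 10.44, 10.33 and 10.19 in VB and 7.37, 7.23 and 7.28 in dLGN (3.02 ± 0.14). All 4 of its probe sets were called in this direction, with differences of 3.02, 2.89, 1.16 and 2.72.

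Several of the others act in calcium, cyclic nucleotide or synaptic signalling. Pde1c, a phosphodiesterase switched on by calcium and calmodulin, had 10.71, 9.99 and 10.61 in VB and 8.0, 7.14 and 6.53 in dLGN (3.21 ± 0.30). Of its 5 other probe sets, those at 1.11 and 0.68 were called, and the one at -0.17 had the opposite sign. Glra3, a glycine receptor subunit, had 8.48, 8.01 and 8.12 in VB and 5.37, 5.72 and 4.96 in dLGN (2.85 ± 0.44), although its second probe set gave -0.24 ± 0.12 and was not called. Grin3a, an NMDA receptor subunit of the immature brain, had 10.94, 10.06 and 10.48 in VB and 8.80, 8.07 and 7.87 in dLGN (2.25 ± 0.26). The kinase gene Camk1d was higher by 2.17 ± 0.18, and Kcnab1, an auxiliary subunit of voltage-gated potassium channels, by 2.51 ± 0.28. Scg2, a protein of dense-core vesicles, had 12.96, 12.05 and 12.21 in VB and 11.21, 10.09 and 9.15 in dLGN (2.26 ± 0.41). The Scg2 call was lost without VB 24_2, and its differences were 1.76 to 2.79 over the 6 fits that left out 1 array.

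Among the rest of the 15, Gfra2, the neurturin receptor that signals through Ret, had 10.86, 11.15 and 10.92 in VB and 8.53, 8.59 and 8.33 in dLGN (2.49 ± 0.17). Its probe sets disagreed: another was called at 2.18 ± 0.22, and the remaining ones lay between -0.03 and 0.09. Elmod1 (3.12 ± 0.37), Pdzrn3 (2.83 ± 0.40), Vstm2a (2.40 ± 0.30) and Myh3, a muscle myosin of the embryo (2.17 ± 0.31), completed the group. The second Pdzrn3 probe set gave 0.04 and was not called. The dLGN arrays of Elmod1, Pdzrn3 and Vstm2a were ordered alike, highest on 24_2 and lowest on 40_1, which is also the dLGN array of widest actin gap. Those of Tgfbi, Pde1c, Scg2, Grin3a and Camk1d had the same order, and those of the other increases did not. Several of the largest decreases had it too, Sorcs1, Hs6st2 and Gfra1 among them.

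The 15 largest decreases in the VB, chosen in the same way, ran from -2.67 to -1.79. Sorcs1, a sorting receptor of the Vps10 family, had 5.49, 5.33 and 5.21 in VB and 8.46, 8.05 and 7.52 in dLGN (-2.67 ± 0.32, adjusted p = 0.000631). Hdc, the enzyme that makes histamine, had 7.87, 8.20 and 8.05 in VB and 10.45, 10.22 and 10.15 in dLGN (-2.24 ± 0.26). Hs6st2, which adds sulfate groups to heparan sulfate, had 10.28, 9.45 and 10.38 in VB and 12.90, 12.40 and 11.79 in dLGN (-2.33 ± 0.31). Fam163a had 7.31, 7.04 and 6.81 in VB and 9.70, 9.19 and 9.36 in dLGN (-2.36 ± 0.17, adjusted p = 3.73e-05). In all 4 genes the nuclei were well apart.

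Transcription factors and enzymes were among the other large decreases. Zic4, a zinc finger transcription factor, had 8.14, 7.99 and 8.14 in VB and 10.48, 10.17 and 9.77 in dLGN (-2.05 ± 0.29). Neurog2, a proneural factor of neurons that become glutamatergic, had 5.52, 5.88 and 5.82 in VB and 7.71, 7.44 and 7.91 in dLGN (-1.95 ± 0.16). Gfra1, the GDNF receptor, ran opposite to its paralogue Gfra2, with 6.92, 6.38 and 7.05 in VB and 9.83, 8.83 and 7.80 in dLGN (-2.04 ± 0.37). Moxd1, a copper monooxygenase (-2.37 ± 0.27), Cdca7 (-2.22 ± 0.28), Fgd5, an exchange factor for Cdc42 (-2.07 ± 0.17), Scarf2 (-2.01 ± 0.15), Ppp1r16b (-1.86 ± 0.18), the metalloprotease Tll1 (-1.82 ± 0.35) and Necab1 (-1.79 ± 0.30) made up the rest with Gad1, described below. The call of Tll1 was lost without VB 24_2 or VB 40_1, with differences between -2.07 and -1.44 over the 6 fits that left out 1 array. A second Ppp1r16b probe set gave 0.0018 and was not called. Of the 30 genes, 19 had more than 1 probe set, and the second was called for 10 of them.

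**Figure D1:**
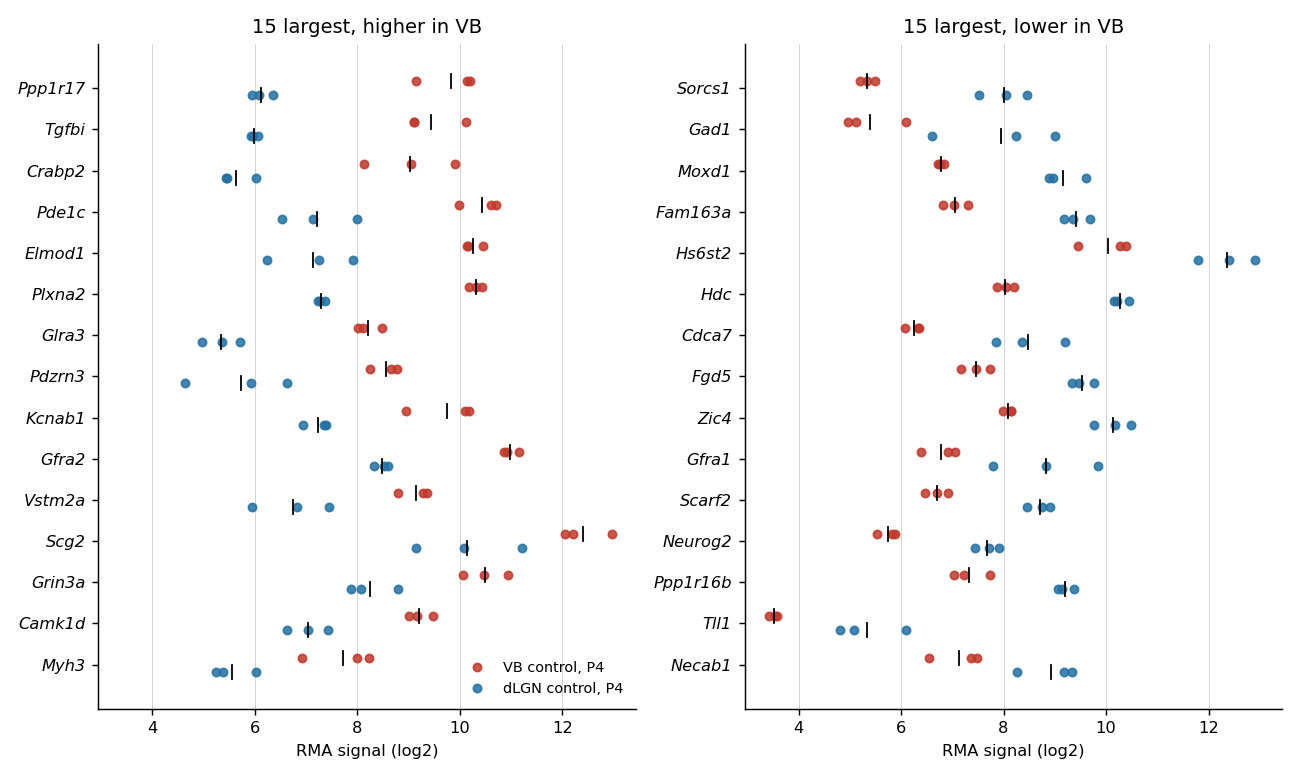
RMA signals (log2) of the 15 genes with the largest increases (left panel) and decreases (right panel) in the VB at P4, by gene. Red points are the 3 VB control arrays, blue points the 3 dLGN control arrays and black bars the group means. The groups do not overlap for any of the 30 genes, which was a condition of their choice, and the largest difference is that of Ppp1r17 (3.71).

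For every gene list below, the share called over all genes was 2.48%, and no list was tested against it. A list with no call or a single call lies near that share. Of 53 measured transcription factors known from thalamic relay neurons, 4 were higher in the VB, 4 were lower and 45 were not called, with a list median of -0.08. Rorb, a nuclear receptor of sensory thalamus and cortex, had 9.06, 8.49 and 8.98 in VB and 7.29, 7.37 and 7.09 in dLGN (1.59 ± 0.23, adjusted p = 0.00191). A second Rorb probe set was called at 2.18 ± 0.26, and the third, at 0.53 ± 0.14, was not. Tshz1, a zinc finger factor, had 11.30, 11.50 and 10.88 in VB and 9.72, 9.65 and 9.78 in dLGN (1.51 ± 0.18). Bcl11a (1.16 ± 0.21) and Nr2f2, an orphan nuclear receptor also named COUP-TFII (0.94 ± 0.22), were the other increases. Both are regulators of neuronal identity.

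Besides Zic4, the factors lower in the VB were the LIM homeodomain genes Lhx2 and Lhx9 and the HLH gene Id2. Lhx2 had 3.67, 4.11 and 3.81 in VB and 5.15, 5.28 and 5.02 in dLGN (-1.29 ± 0.16). Lhx9 had 10.99, 11.22 and 11.04 in VB and 11.97, 12.02 and 12.22 in dLGN (-0.99 ± 0.12). Id2 was less settled, at 10.18, 9.86 and 10.59 in VB and 11.39, 11.38 and 10.71 in dLGN (-0.95 ± 0.23, adjusted p = 0.0422). Leaving out VB 24_2, VB 36_3, dLGN 24_2 or dLGN 36_3 ended the Id2 call (differences of -1.18 to -0.78 over the 6 fits), and leaving out VB 24_2, VB 40_1, dLGN 36_3 or dLGN 40_1 ended that of Nr2f2 (0.82 to 1.08). Gbx2, a homeobox gene needed for thalamic development, had 7.40, 6.98 and 6.20 in VB and 5.42, 5.42 and 5.48 in dLGN. The groups did not overlap, but with a difference of 1.42 ± 0.41 and an adjusted p of 0.11 it was not called.

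Transporters and a peptide of thalamic neurons did not pass the test. Slc17a6, the vesicular glutamate transporter of thalamic neurons, had 12.99, 11.98 and 12.66 in VB and 13.02, 12.38 and 11.34 in dLGN (0.30 ± 0.39, adjusted p = 0.755), so the groups overlapped. The cortical transporter Slc17a7 had 5.57, 6.26 and 5.16 in VB and 5.28, 5.21 and 5.44 in dLGN (0.35 ± 0.22, adjusted p = 0.528). Cck, a neuropeptide precursor, had 13.35, 12.96 and 13.32 in VB and 13.50, 12.96 and 12.56 in dLGN (0.20 ± 0.21, adjusted p = 0.691). Slc6a4, the serotonin transporter that sensory thalamic neurons use for a short time after birth, had 10.67, 9.82 and 10.34 in VB and 10.27, 9.39 and 8.63 in dLGN (0.85 ± 0.35, adjusted p = 0.318). For Slc6a4 the VB array was above the dLGN array in each label, though the groups overlapped. Slc17a6 and Cck changed sign without dLGN 40_1, to -0.15 and -0.02.

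Of 26 measured markers of GABAergic neurons next to the relay nuclei, 5 were lower in the VB, none was higher, and 2 lay above 0. The list median was -0.27, and it was -0.07 with the actin gap as a covariate and -0.15 without the 3 arrays of widest gap. Gad1, which makes GABA, had 4.97, 5.12 and 6.09 in VB and 9.0, 8.25 and 6.61 in dLGN (-2.56 ± 0.56, adjusted p = 0.0274). The gap was widest in 24_2 and narrowest in 40_1, and the call was lost without VB 24_2, VB 36_3 or dLGN 36_3 (differences of -3.23 to -2.03 over the 6 fits). Its second probe set gave -0.56 ± 0.16 and was not called. Meis2, a homeodomain factor, had 5.72, 6.01 and 6.23 in VB and 7.50, 7.55 and 7.85 in dLGN (-1.65 ± 0.27). Tal1 and Gata3, which set the GABAergic fate of midbrain and caudal forebrain neurons, were also lower (-1.52 ± 0.22 and -1.08 ± 0.17). Lhx1 (-0.60 ± 0.13) lost its call in 4 of the 6 fits that left out 1 array (VB 24_2, VB 40_1, dLGN 36_3 and dLGN 40_1, -0.68 to -0.52). Signals summed over the 26 markers were 10.49 to 10.66 (log2) in VB arrays and 11.01 to 11.39 in dLGN arrays. The 21 uncalled markers alone gave 10.28 to 10.44 in VB and 10.55 to 10.72 in dLGN. Gad2, the other GABA-synthesising enzyme, and Slc32a1, the vesicular GABA transporter, were not called (-0.66, adjusted p = 0.104, and -0.09, adjusted p = 0.789). Sox14, a marker of the ventral lateral geniculate nucleus, had 6.36, 6.31 and 6.27 in VB and 6.20, 6.61 and 6.78 in dLGN (-0.22 ± 0.14, adjusted p = 0.539). These markers do not tell GABAergic cells inside the dLGN from those beside it, and the part of either in the dLGN values was not tested.

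**Figure D2:**
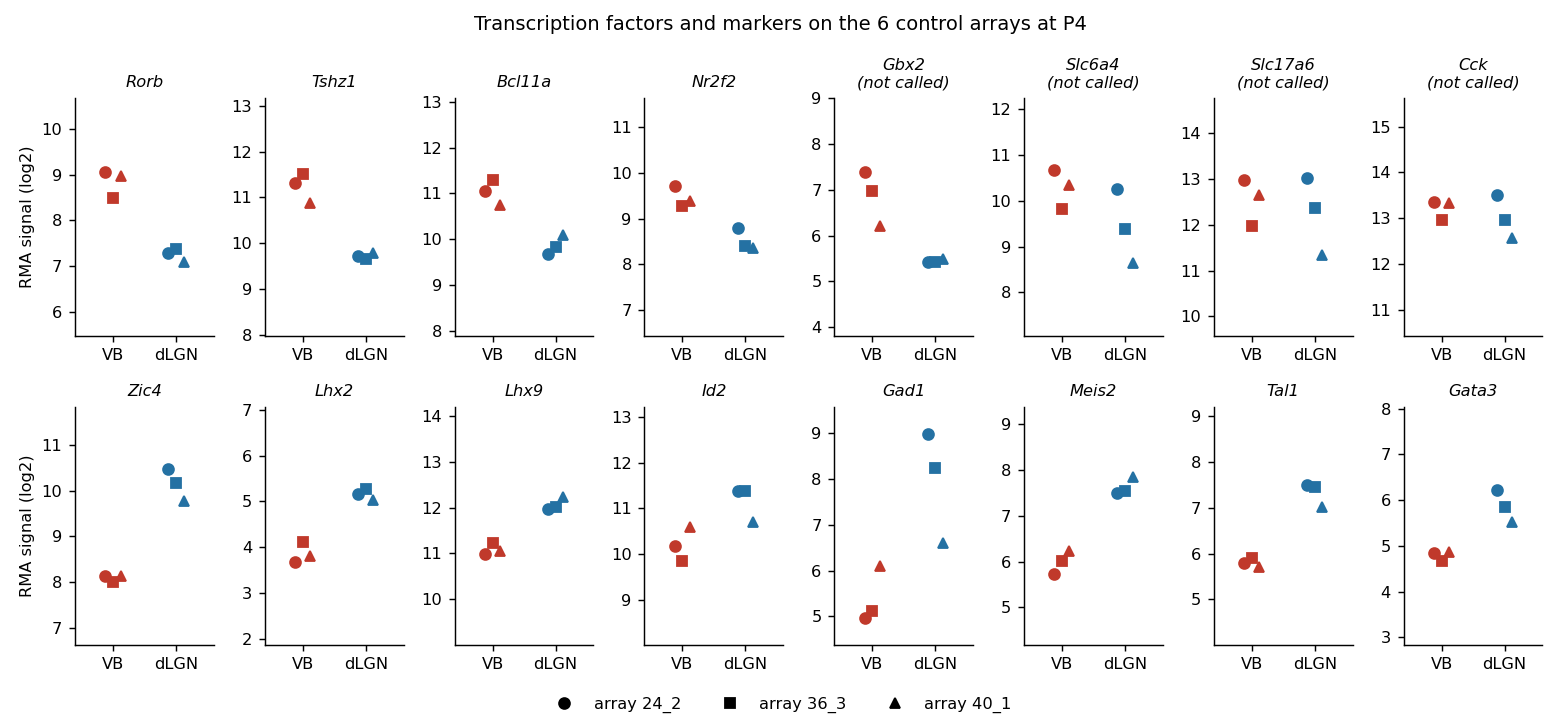
RMA signals (log2) of relay neuron transcription factors, transporters and GABAergic markers on the 3 VB control arrays (red, left) and the 3 dLGN control arrays (blue, right) at P4. Symbols give the array label, and every panel spans the same range of log2 units around its own midpoint. Rorb and Zic4 separate the nuclei in opposite directions, and Slc17a6 and Cck overlap.

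Other cell types were read from their marker lists. Of 25 astrocyte and radial glia markers none was lower in the VB and 4 were higher (list median 0.22), namely S100b (1.45 ± 0.27), Htra1 (1.21 ± 0.28), Hes1 (1.06 ± 0.21) and the amino acid transporter gene Slc7a10 (0.89 ± 0.13). Slc7a10 had 8.09, 7.92 and 8.18 in VB and 7.30, 7.05 and 7.18 in dLGN, and it was the only 1 of the 4 to keep its call whichever array was left out. S100b and Hes1 were lost without VB 24_2, VB 40_1 or dLGN 36_3 (1.26 to 1.76 and 0.88 to 1.35), Hes1 also without dLGN 40_1, and Htra1 in 5 of 6 fits, all but the one without dLGN 40_1 (1.13 to 1.34). Aqp4, the astrocytic water channel, was not called (-0.17, adjusted p = 0.811), and the summed signals overlapped (15.25 to 15.58 in VB, 15.19 to 15.39 in dLGN).

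Of 22 markers of the oligodendrocyte lineage and myelin, 2 were higher in the VB and none was lower (list median 0.21). Mbp, a major myelin protein, had 9.39, 8.73 and 8.69 in VB and 7.47, 7.28 and 7.34 in dLGN (1.57 ± 0.18, adjusted p = 0.000559). Its 7 other probe sets disagreed in size: 6 were called, at 1.32 to 3.57, and 1 gave -0.12 and was not. Bcas1, which marks newly formed oligodendrocytes, was higher by 1.10 ± 0.23, a call lost without VB 24_2, VB 40_1 or dLGN 36_3 (0.94 to 1.28). The precursor marker Pdgfra was not called (0.38, adjusted p = 0.552), nor was the late myelin gene Mog (-0.06, adjusted p = 0.856), and the summed signals overlapped (13.96 to 14.43 in VB, 13.72 to 14.19 in dLGN). No marker of microglia (16 measured), vessels (20) or red blood cells (7) was called by limma, and 4, 1 and 0 of them had an unadjusted p under 0.05.

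Markers of neighbouring tissue were read in the same way. In the 16 meningeal markers, Crabp2 was higher and Islr lower (-0.99 ± 0.19, lost without VB 24_2 or VB 40_1, -1.07 to -0.84). Summed meningeal signals were 10.54 to 11.13 in VB and 10.08 to 10.36 in dLGN, and they overlapped once the called members were left out (10.19 to 10.49 in VB, 9.94 to 10.22 in dLGN). The collagen gene Col1a1 was not called (0.70, adjusted p = 0.338). Of 14 choroid plexus markers, Sostdc1 was lower (-0.99 ± 0.16) and 1 lay above 0, with summed signals of 9.63 to 9.77 in VB and 9.98 to 10.05 in dLGN. Without Sostdc1 the sums still lay apart, at 9.56 to 9.68 in VB and 9.85 to 9.90 in dLGN. Transthyretin (Ttr), the leading choroid plexus product, was not called (-0.12, adjusted p = 0.736). Habenular markers gave 1 call each way, Nwd2 (1.03 ± 0.19) and Chrna3 (-0.60 ± 0.14), and both hung on single arrays. Nwd2 was lost without VB 24_2 or dLGN 36_3 (0.87 to 1.23), and Chrna3 in every such fit but the one without dLGN 40_1 (-0.69 to -0.46). The defining habenular genes Pou4f1 and Gpr151 were not called (-0.18, adjusted p = 0.629, and -0.29, adjusted p = 0.339). Summed habenular signals were 12.40 to 12.81 in VB and 11.90 to 12.29 in dLGN, and they overlapped without the called members (11.54 to 12.10 in VB, 11.39 to 11.66 in dLGN). Cortical and hippocampal markers (16 measured) held 2 decreases, Neurog2 and Lhx2, both given above, and the other 14 were not called. Signals of these 14 went from under 3.1 on every array (Neurod6 and Tbr1) up to 8.33 to 9.49 (Camk2a). Such levels do not show whether this tissue was present. The part of neighbouring tissue in these differences was not tested.

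Cadherins were called in 1 direction. Of 32 classical cadherins and nonclustered protocadherins, which bind cells of like kind to each other, 6 were higher in the VB and none was lower (list median 0.16). Cdh13 had 9.93, 8.81 and 9.35 in VB and 7.86, 7.27 and 6.80 in dLGN (2.05 ± 0.32). Cdh6 had 11.59, 10.96 and 11.50 in VB and 10.36, 9.75 and 9.22 in dLGN (1.57 ± 0.24). For both the lowest dLGN array was 40_1, and the lowest VB array 36_3. The protocadherins Pcdh17 (1.61 ± 0.31), Pcdh11x (1.34 ± 0.17) and Pcdh18 (0.93 ± 0.14) and the cadherin Cdh22 (1.08 ± 0.25) were the others. Pcdh17 was lost without VB 24_2, VB 40_1 or dLGN 36_3 (1.34 to 1.89), and Cdh22 without VB 24_2, VB 36_3, dLGN 36_3 or dLGN 40_1 (0.91 to 1.31).

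Synaptic organizers, which bridge pre- and postsynaptic membranes, were called in both directions. Of 42 measured, 6 were higher in the VB and 3 lower (list median 0.06). The 3 decreases were teneurins: Tenm2, at 12.37, 12.34 and 12.36 in VB and 13.41, 13.37 and 13.30 in dLGN (-1.01 ± 0.19), Tenm3 (-0.77 ± 0.17) and Tenm4 (-0.67 ± 0.15). The remaining teneurin, Tenm1, went the other way, with 12.28, 11.77 and 12.02 in VB and 10.96, 10.64 and 10.38 in dLGN (1.36 ± 0.18). Control replicates of Tenm2 lay close together (SD 0.018 in VB and 0.059 in dLGN), but its SE was estimated over all 12 P4 arrays. Its call was lost without VB 24_2 or dLGN 36_3, with differences of -1.04 to -0.98 over the 6 fits. The calls of Tenm3 and Tenm4 were lost without VB 24_2, VB 40_1, dLGN 36_3 or dLGN 40_1 (-0.90 to -0.58 and -0.72 to -0.61). Leucine-rich repeat proteins made up most of the increases: Lrrtm4, at 7.92, 7.99 and 8.31 in VB and 5.97, 6.05 and 6.01 in dLGN (2.06 ± 0.18, adjusted p = 6.74e-05), Flrt2 (1.28 ± 0.16), Slitrk6 (1.15 ± 0.21) and Lrrc4 (0.66 ± 0.14). Il1rapl2 was higher by 0.71 ± 0.13. Lrrc4 was lost without VB 24_2, dLGN 36_3 or dLGN 40_1 (0.55 to 0.77), and Il1rapl2 without VB 40_1 or dLGN 36_3 (0.64 to 0.82).

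Among 35 immunoglobulin adhesion molecules, 3 were higher and 2 lower (list median 0.16). Cntn3, a contactin, had 8.80, 9.18 and 9.07 in VB and 7.08, 7.19 and 6.36 in dLGN (2.14 ± 0.25). Kirrel3, a homophilic adhesion molecule of synapse formation, was higher by 2.09 ± 0.36 and Nfasc, an organiser of nodes of Ranvier and axon initial segments, by 1.13 ± 0.15, with other Nfasc probe sets at 0.004 and 0.01 and not called. Cadm1, a synaptic adhesion molecule, had 10.67, 10.74 and 10.46 in VB and 11.82, 11.95 and 11.86 in dLGN (-1.25 ± 0.15), and Igsf21 was lower as well (-0.63 ± 0.12), a call lost without VB 40_1 (-0.69 to -0.59).

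Axon guidance genes came next, where the share called over all genes was 2.48%. Of 48 semaphorins, Slits, netrins and their receptors, 4 were higher in the VB and none was lower (list median -0.07). Besides Plxna2 these were the netrin receptor Unc5b, at 8.69, 8.73 and 8.70 in VB and 7.56, 7.63 and 7.94 in dLGN (1.0 ± 0.12), Plxnd1 (0.82 ± 0.18) and Ntn4 (0.71 ± 0.14). Plxnd1 lost its call without VB 24_2, VB 36_3, dLGN 36_3 or dLGN 40_1 (0.67 to 0.95), and Ntn4 without VB 24_2 or dLGN 40_1 (0.57 to 0.78). Of 14 EphA receptors and ephrin-A ligands, which carry topographic information in the thalamus and cortex, Efna2 was lower, with 8.59, 9.08 and 8.92 in VB and 9.40, 9.73 and 9.82 in dLGN (-0.79 ± 0.16). It was lost without VB 24_2, VB 40_1, dLGN 36_3 or dLGN 40_1 (-0.91 to -0.65). None of 7 EphB receptors and ephrin-B ligands was called by limma (list median -0.08), and 0 had an unadjusted p under 0.05.

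Among 39 proteoglycans and matrix genes, 4 were higher and 3 lower (list median -0.05). Spock1, a testican, had 10.72, 10.20 and 10.29 in VB and 8.81, 8.42 and 7.86 in dLGN (2.04 ± 0.22). Tenascin-R (Tnr, 1.51 ± 0.27), versican (Vcan, 1.49 ± 0.32) and the protease that cuts versican, Adamts5 (0.73 ± 0.14), were the other increases. Reelin (Reln), a glycoprotein that directs neuronal positioning, had 7.13, 7.21 and 7.62 in VB and 9.19, 8.80 and 8.77 in dLGN (-1.60 ± 0.23), and its second probe set gave 0.01 and was not called. The glypicans Gpc5, at 8.93, 8.91 and 9.11 in VB and 10.37, 10.37 and 10.20 in dLGN (-1.33 ± 0.14), and Gpc4 (-0.94 ± 0.16) fell in the same direction. Tnr was lost without dLGN 36_3 (1.37 to 1.65), Adamts5 without VB 24_2 (0.63 to 0.78), and Vcan without VB 24_2, VB 40_1, dLGN 36_3 or dLGN 40_1 (1.20 to 1.83). In 20 heparan sulfate enzymes, Hs6st2 was the only call.

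**Figure D3:**
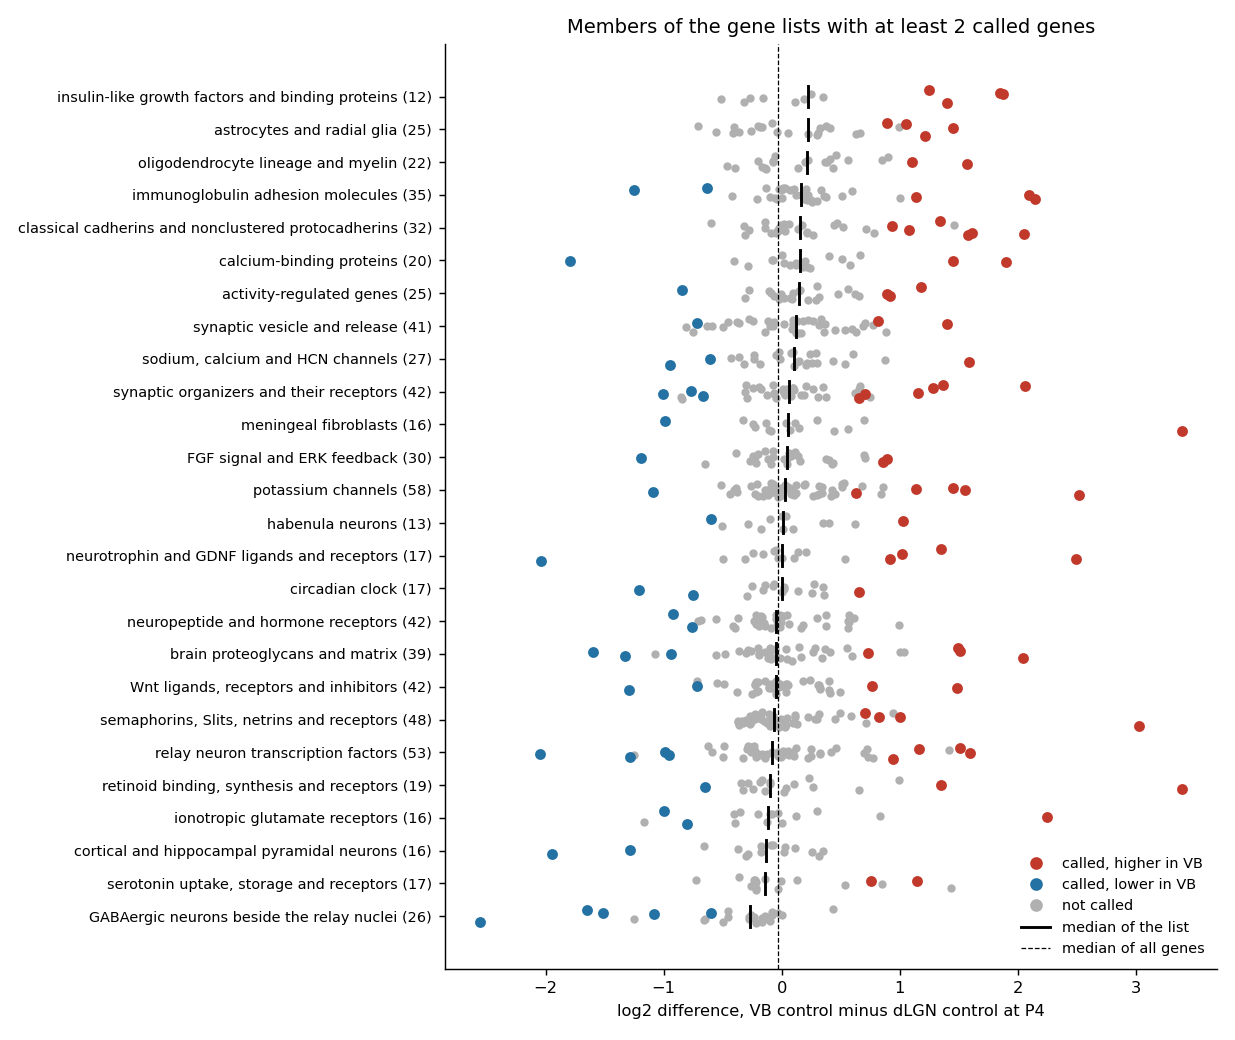
Log2 differences of VB control minus dLGN control at P4 for the members of the gene lists with at least 2 called genes (number measured in parentheses). Red points were called higher in the VB, blue points lower and grey points were not called, and bars mark list medians beside the median of all genes (dashed, -0.03). The cadherins carry 6 calls on the higher side and the GABAergic markers 5 on the lower side.

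Of 12 insulin-like growth factor genes, 4 were higher in the VB and none was lower (list median 0.22, but -0.01 with the actin gap as a covariate). Igf1, the ligand, had 10.93, 10.52 and 10.91 in VB and 9.32, 8.94 and 8.47 in dLGN (1.87 ± 0.21, adjusted p = 0.00052). The binding proteins Igfbp5 (1.85 ± 0.30), Igfbp3 (1.40 ± 0.31) and Igfbp2 (1.24 ± 0.21) were higher with it. For Igfbp5 the VB arrays lay close together, at 12.04, 12.14 and 11.91, and the dLGN arrays apart, at 11.02, 9.97 and 9.55. Igfbp3 was lost without VB 24_2, VB 40_1, dLGN 36_3 or dLGN 40_1 (1.01 to 1.66), and the second Igfbp5 probe set gave 0.05 (adjusted p = 0.934). Without the 3 arrays of widest actin gap, against dLGN 24_2 alone, the Igfbp5 difference was 0.95 and was not called.

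Of 17 genes in the neurotrophin and GDNF list, which also holds the cytokine receptor gene Lifr, 4 were higher and 1 lower (list median near 0). Next to Gfra2 and Gfra1, Bdnf, a neurotrophin set by activity, had 8.03, 7.87 and 8.05 in VB and 7.01, 7.18 and 7.02 in dLGN (0.91 ± 0.13, adjusted p = 0.00145). Ntrk3, the receptor of neurotrophin-3, was higher by 1.02 ± 0.20 and Lifr by 1.35 ± 0.31. Both were lost without VB 24_2, VB 40_1 or dLGN 36_3 (0.85 to 1.24 and 0.98 to 1.67), and Lifr also without dLGN 40_1.

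Retinoid, Wnt and FGF genes gave calls in both directions. Of 19 retinoid genes, Crabp2 and Cyp26a1, which degrades retinoic acid, were higher (Cyp26a1 8.13, 7.53 and 7.43 in VB, 6.21, 6.24 and 6.60 in dLGN, 1.35 ± 0.23), and the receptor gene Rxrg was lower (-0.65 ± 0.14). Of 42 Wnt genes, 2 were higher, the R-spondin Rspo2 (7.28, 7.07 and 7.53 in VB, 5.88, 5.68 and 5.87 in dLGN, 1.49 ± 0.20) and its receptor Lgr4 (0.76 ± 0.15). The related receptor Lgr5 (-1.30 ± 0.32, adjusted p = 0.0498) and the inhibitor Nkd1 (-0.72 ± 0.13) were lower. Of 30 FGF genes, Fgf15 was lower, with 4.74, 4.97 and 5.07 in VB and 6.43, 6.14 and 5.78 in dLGN (-1.19 ± 0.18), and Dusp6, a feedback phosphatase of ERK (0.89 ± 0.19), and Fgf12, an intracellular FGF (0.86 ± 0.18), were higher. Of 33 BMP and TGF-beta genes, only Tgfb3 was called (0.86 ± 0.19), near the 2.48% called over all genes. Leaving out VB 24_2 ended the calls of Rxrg, Lgr4, Lgr5, Dusp6, Fgf12 and Tgfb3, leaving out VB 40_1 those 6 and Nkd1, and leaving out dLGN 36_3 the same 6 (Rxrg -0.71 to -0.55, Lgr4 0.66 to 0.94, Lgr5 -1.61 to -1.01, Dusp6 0.76 to 1.04, Fgf12 0.69 to 1.03, Tgfb3 0.70 to 1.07, Nkd1 -0.79 to -0.60). Leaving out dLGN 40_1 ended those of Dusp6, Fgf12 and Tgfb3, dLGN 24_2 those of Rxrg and Lgr5, and VB 36_3 that of Lgr5.

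Ion channels and receptors followed. Of 58 potassium channel genes, 5 were higher in the VB and 1 lower (list median 0.03). Besides Kcnab1 the increases were Kcna5 (1.55 ± 0.29), Kcnh5, at 4.41, 4.23 and 4.74 in VB and 2.97, 3.07 and 2.99 in dLGN (1.45 ± 0.15), Kcna1, at 9.74, 9.10 and 9.68 in VB and 8.33, 8.41 and 8.38 in dLGN (1.14 ± 0.19), and the glial channel Kcnj10 (0.63 ± 0.13). Kcnab1, Kcna1 and Kcna5 belong to 1 family, the Shaker-type channels and their auxiliary subunit. Kcnk12, a subunit of the 2-pore family, was lower (-1.09 ± 0.13). Kcna5 was lost without dLGN 36_3 (1.41 to 1.65), and Kcnj10 without VB 24_2, VB 40_1, dLGN 36_3 or dLGN 40_1 (0.55 to 0.79).

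Of 27 sodium, calcium and HCN channel genes, Cacna2d3, a calcium channel subunit, was higher (1.59 ± 0.32), and Cacng2 (stargazin), which carries AMPA receptors to the synapse, was lower, with 7.92, 8.26 and 7.96 in VB and 8.65, 9.06 and 9.26 in dLGN (-0.94 ± 0.16). Its relative Cacng8 was also lower (-0.61 ± 0.14). Cacna2d3 was lost without VB 24_2, VB 40_1 or dLGN 36_3 (1.22 to 1.95), and Cacng8 without any of these or dLGN 40_1 (-0.74 to -0.50). Of 16 ionotropic glutamate receptor genes, Grin3a was higher, and the kainate receptor gene Grik3 (9.16, 9.66 and 9.55 in VB, 10.12, 10.68 and 10.55 in dLGN, -0.99 ± 0.18) and Grid1 (-0.81 ± 0.17) were lower. Both lost their call without VB 24_2, Grik3 also without dLGN 36_3 and Grid1 also without VB 40_1 (-1.16 to -0.85 and -0.90 to -0.61). None of 6 metabotropic glutamate receptors (list median -0.18) or 17 GABA-A receptor subunits and chloride transporters (0.12) was called by limma, and 1 and 5 of them had an unadjusted p under 0.05.

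Genes of amine and peptide signalling were read in the same way. Of 17 serotonin genes, the breakdown enzymes Maob (7.14, 6.81 and 6.80 in VB, 6.16, 5.75 and 5.41 in dLGN, 1.15 ± 0.21) and Maoa (0.76 ± 0.15) were higher. Maob was lost without VB 24_2 (0.96 to 1.34) and Maoa without VB 24_2, VB 40_1 or dLGN 36_3 (0.65 to 0.87). Of 28 neuropeptide precursors, galanin (Gal) was the 1 called, with 10.25, 10.08 and 10.47 in VB and 9.43, 9.49 and 9.11 in dLGN (0.92 ± 0.15). Of 42 peptide and hormone receptors, 2 were lower, the galanin receptor gene Galr2 (-0.93 ± 0.17) and the somatostatin receptor gene Sstr5 (-0.76 ± 0.13). The Galr2 call ended under cyclic loess normalisation. Without the 3 arrays of widest actin gap, against dLGN 24_2 alone, the differences were -0.70 for Galr2 and -0.69 for Sstr5. Among 21 amine receptors, Chrna3 was the single call.

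Calcium-binding, vesicle, activity and clock genes were mixed. Vsnl1 (visinin-like protein), a neuronal calcium sensor, was higher (13.22, 12.64 and 12.65 in VB, 11.73, 10.88 and 10.20 in dLGN, 1.90 ± 0.33), and with S100b and Necab1 it made 2 increases and 1 decrease of 20 calcium-binding genes. Of 41 vesicle genes, Syt9, a calcium sensor of release, had 11.08, 10.74 and 10.72 in VB and 9.44, 9.60 and 9.30 in dLGN (1.40 ± 0.15). Syn3 was also higher (0.82 ± 0.14), and Unc13b, a priming factor, was lower (-0.72 ± 0.11). Of 25 activity-regulated genes, Fosl2 (8.50, 8.34 and 8.76 in VB, 7.24, 7.51 and 7.31 in dLGN, 1.18 ± 0.13), Bdnf and Dusp6 were higher, and Jun was lower (-0.84 ± 0.16). Of 17 clock genes, the output factors Hlf (8.51, 8.70 and 8.37 in VB, 9.40, 9.85 and 9.97 in dLGN, -1.21 ± 0.17) and Dbp (-0.75 ± 0.16) were lower and Bhlhe40 was higher (0.66 ± 0.15). Jun was lost without VB 24_2 or dLGN 36_3 (-1.03 to -0.69), and Dbp and Bhlhe40 without VB 24_2, VB 40_1, dLGN 36_3 or dLGN 40_1 (-0.91 to -0.62 and 0.57 to 0.78). No gene of cell division (33 measured, list median -0.09), connexins (12) or neurofilament and axon growth (25) was called by limma, and 3, 2 and 2 of them had an unadjusted p under 0.05.

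The same contrast was then read in mice without eyes. In P4 embBE mice, 561 genes were higher in the VB (3.08%) and 297 lower (1.63%). Of the 260 genes higher in control VB, 220 were also called higher in embBE VB, and of the 191 lower genes 127 were called lower. The sign was shared by all 260 and by 189 of the 191, against 82.3% of all genes, and no gene was called in opposite directions. The median differences in embBE mice were 1.11 for the higher genes and -0.83 for the lower ones. These pairs of groups share no array, but both contrasts came from the same fit of the 12 P4 arrays and used the same spread for each gene. The counts called in both are therefore not independent. The embBE arrays also had the same imbalance of RNA quality, with actin gaps of 1.98 to 2.06 in VB and 3.34 to 3.94 in dLGN.

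All 15 of the largest increases were called in embBE mice as well, Ppp1r17 at 3.37 and Plxna2 at 2.63, as were 12 of the 15 largest decreases. The exceptions were Gad1 (-1.69), Moxd1 (-0.85) and Gfra1 (-1.01). A test of the difference between the control and embBE contrasts passed for no gene (0%), and the lowest adjusted p from limma was 0.965. At an unadjusted p under 0.05 there were 343 genes, 87 of them with at least 1.5-fold, and Moxd1 differed by -1.52 between the contrasts without passing (adjusted p = 0.965). A p that misses the threshold does not show that the contrasts are alike.

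At birth fewer genes were called. In P0 controls, with 2 dLGN arrays, 46 genes were higher in the VB (0.253%) and 87 lower (0.478%). Of the 260 genes higher at P4, 35 were also called higher at P0 and 248 had the same sign, with a median difference of 0.60 at P0. Of the 191 lower genes, 52 were also called lower and 185 had the same sign, with a median of -0.83. Over all genes 49.1% shared the sign. The actin gap was 2.20 to 4.29 in P0 VB arrays and 3.26 and 4.05 in P0 dLGN arrays, so it did not separate the nuclei at that age. Of the 15 largest increases 6 were called at P0, Ppp1r17 (2.12), Tgfbi (2.92), Crabp2 (3.51), Plxna2 (2.54), Gfra2 (2.13) and Camk1d (1.57), and of the 15 largest decreases 11 were, Fam163a (-3.09), Hs6st2 (-2.85), Neurog2 (-2.68) and Zic4 (-1.92) among them. In all 3 contrasts 33 genes were called higher and 42 lower.

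Some P4 differences were small at P0. Cntn3 differed by 2.14 at P4 and 0.07 at P0, Kcna1 by 1.14 and 0.07, and Tenm1 by 1.36 and -0.22, but in none of them did the change with age pass the test. Cck ran the other way, called at P0 (1.14) and not at P4 (0.20).

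**Figure D4:**
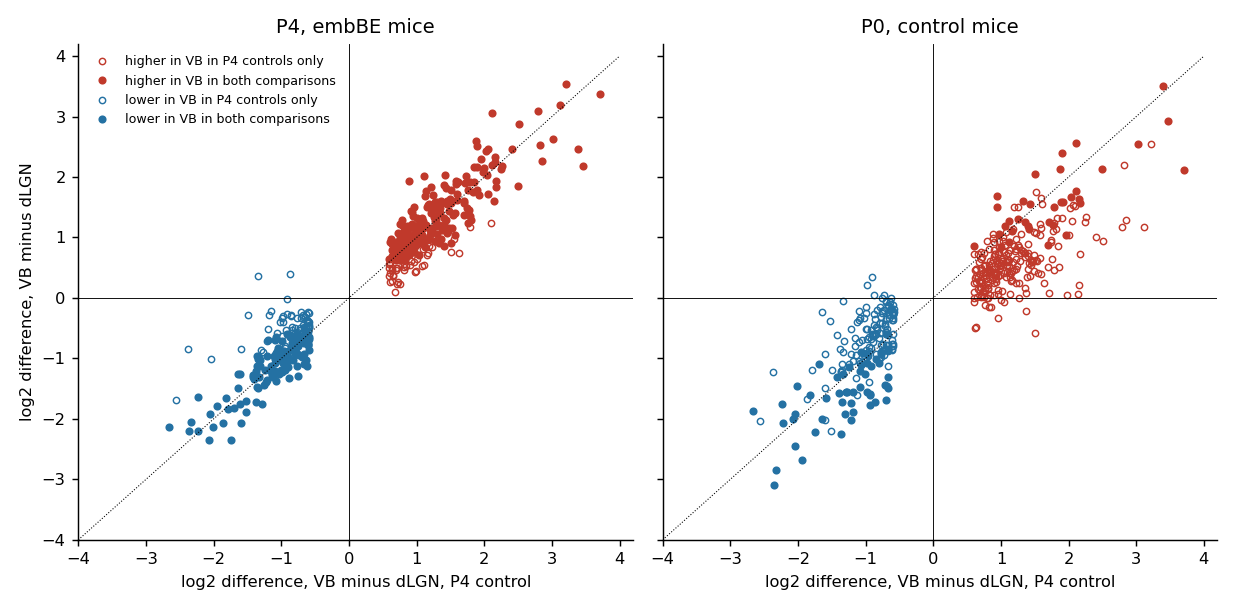
Log2 differences of VB minus dLGN for the 451 genes called in P4 controls (x axis) against the same contrast in P4 embBE mice (left) and P0 controls (right). Filled points were also called in the second contrast, red points were higher and blue points lower in VB at P4, and the dotted line marks equal values. The sign was shared by 260 of 260 higher genes in embBE mice and by 248 at P0.

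The difference between the P4 and P0 contrasts, fitted over all 24 arrays, passed for 4 genes (0.0220%). Plekhd1 had signals of 7.10 to 7.75 in VB and 5.01 to 5.62 in dLGN at P4, and 5.17 to 5.53 in VB and 5.03 and 5.21 in dLGN at P0. The VB at P4 was thus the only control group that was high (change of the contrast 1.95 ± 0.33, adjusted p = 0.0371). Kcnc2, a potassium channel subunit of fast-spiking neurons, had 7.23 to 7.49 in VB and 6.80 to 6.92 in dLGN at P4, against 6.15 to 6.68 in VB and 7.66 and 7.82 in dLGN at P0, so the order of the nuclei turned round (1.77 ± 0.28, adjusted p = 0.0264). Fat1, an atypical cadherin, likewise had 9.27 to 9.81 in VB and 8.81 to 9.25 in dLGN at P4, against 8.44 to 8.68 in VB and 9.27 and 9.78 in dLGN at P0 (1.55 ± 0.25, adjusted p = 0.0264). Myoz2, a protein of the muscle Z-disc, had 5.70 to 5.96 in VB and 6.61 to 6.97 in dLGN at P4, against 5.94 to 6.15 in VB and 5.69 and 5.75 in dLGN at P0 (-1.26 ± 0.18, adjusted p = 0.0176).

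Of these 4 genes Plekhd1 and Myoz2 were called within P4 (2.16 ± 0.23 and -0.91 ± 0.13), and Kcnc2 (0.51 ± 0.11, adjusted p = 0.0269) and Fat1 (0.55 ± 0.17, adjusted p = 0.126) fell short of 1.5-fold there, Fat1 also missing the limit on p. The P4 and P0 controls also differed in sex-linked genes: Xist was 10.02 to 11.01 on all 6 P4 control arrays and 6.93 to 7.31 on the 5 P0 control arrays, so that age and these sex-linked levels cannot be told apart. Leaving out 1 control array gave between 0 and 8 calls. There were none without P0 dLGN 39_5, P0 VB 35_2, P4 dLGN 36_3 or P4 VB 24_2, 1 without P4 dLGN 40_1 or P4 VB 40_1, 2 without P0 dLGN 35_1, P0 VB 39_5 or P4 dLGN 24_2, 7 without P4 VB 36_3 and 8 without P0 VB 35_1.

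**Figure D5:**
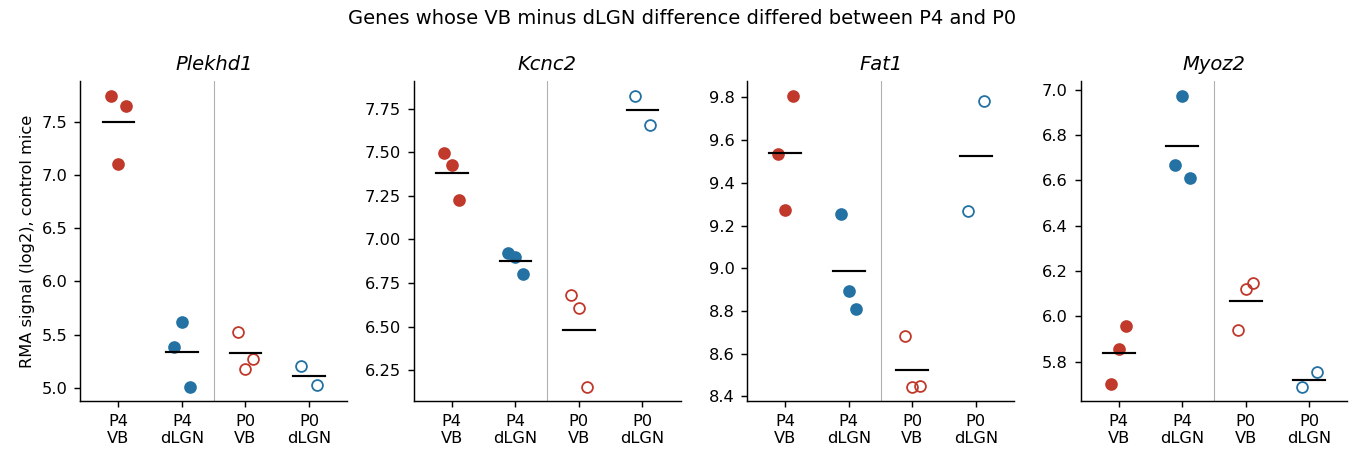
RMA signals (log2) of the 4 genes whose VB minus dLGN difference changed between P4 and P0, in control mice. Filled points are P4 arrays (3 VB in red, 3 dLGN in blue), open points P0 arrays (3 VB, 2 dLGN) and black bars the means, and each panel has its own axis. Plekhd1 is high in the P4 VB group alone, and Kcnc2 and Fat1 have the nuclei in opposite orders at the 2 ages.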

How the data were processed

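Affymetrix mouse arrays were used. The log2 values deposited by the authors had been through RMA normalisation; its version was not given in the sources used. They cover 45101 probe sets, 64 of them array controls, and were not normalised again. No reads, probe intensities or detection calls were used, so the number of arrays (3 per group) limits the precision. The 34958 probe sets with 1 gene symbol in the platform annotation were kept (34754 of them updated through the reference). Those with several symbols (932) or with no listed gene (9211) were dropped. Each gene was represented by its brightest probe set by mean over the 24 arrays, which gave 18194 genes. Weak signals were not filtered, and no genome build or position was used.

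Group means were contrasted in R 4.3.3 with lmFit and eBayes of limma 3.58.1: the P4 contrasts on the 12 P4 arrays, the P0 contrast on the 12 P0 arrays and the change with age on all 24. All tests were 2-sided. With 3 against 3 arrays a permutation of labels cannot go below p = 0.1. The procedure was tested on simulated data.

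Named genes were the 15 largest called increases and decreases and the called members of 42 gene lists. The 15 of each direction were taken from genes whose groups did not overlap, and unnamed clones and predicted genes were passed over. The named genes also took in 9 genes fixed by name and genes called in the tests of differences. Of 1060 genes in the lists 986 were measured, and the others were not analysed here. A planned limit of 6 named members per list was not kept. The members and lists were chosen with earlier results of these data known. Genes of cell type lists quoted as not called were picked as defining markers after their values were seen. Alternatives were the threshold and t-test of the methods, other handling of probe sets, a filter on dim probe sets, other sets of arrays, the label as a block, cyclic loess, median centring, trended and robust moderation, array weights and each array left out. The actin gap as a covariate and a fit without the 3 arrays of widest gap were added after the data were seen. Python 3.11.15 with matplotlib 3.10.9 drew the figures.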

Additional observations from a re-analysis of the deposited data

Results flagged for a closer look

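For 4 genes the VB minus dLGN difference in controls changed between P4 and P0 by a test of the difference itself (limma, adjusted over 18194 genes). On the log2 scale the change was 1.95 for Plekhd1, 1.77 for Kcnc2, 1.55 for Fat1 and -1.26 for Myoz2. In embBE mice at P4, Plekhd1 again had a large difference between VB and dLGN (2.32), while Kcnc2 (-0.03), Fat1 (0.39) and Myoz2 (-0.02) did not pass the test there. The dLGN at P0 had 2 control arrays, and the calls depended on single arrays as given above.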

How the results depend on the processing

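The count of 451 called genes became 872 at the threshold of the methods, 203 with only the 6 P4 control arrays, 683 with the actin gap as a covariate (308 higher, 375 lower) and 1836 with array weights, whose estimation stopped before it converged. The methods' t-test passed 581 genes at their threshold and 3 after Benjamini-Hochberg adjustment. Leaving out 1 array gave 265 to 837. Between 378 (dim probe sets left out) and 642 (every probe set counted) were called under the other alternatives apart from those named in this paragraph. Without the 3 arrays of widest actin gap 349 were called (169 higher, 180 lower), with 1 dLGN control array assumed to vary like the other groups.

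The label numbers were run as a replicate block. Deviations of VB and dLGN arrays with the same label correlated at 0.718 (24_2), -0.0553 (36_3) and -0.552 (40_1), and VB 36_3 and VB 40_1 correlated best with another label's dLGN array. The labels do not state a pairing, and these correlations did not all exceed 0.1, so the fit without the block was kept. The block gave 428 calls (12 arrays), 161 (6 arrays) and 490 (random block). Under the 12-array block 13 of the 123 named called genes lost their call: Gad1, Id2, Lhx1, Grid1, Kcnj10, Cacng8, Plxnd1, Lgr5, Nkd1, Igfbp3, Lifr, Vcan and Jun.

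The change with age passed for 4 genes, for 2 with dim probe sets left out, for 1787 with array weights and for 0 to 8 with 1 array left out. The difference between control and embBE passed for none, and for 201 with array weights. Signs turned for uncalled genes: Cck (-0.17 with the actin gap as a covariate, -0.16 without the 3 arrays, -0.022 to 0.45 with 1 array left out), Slc17a6 (-0.43, -0.19 and -0.15 to 0.69) and Sox14 (0.11 without the 3 arrays). Among the 30 genes with the largest differences, other probe sets had the opposite sign for Pde1c (-0.17), Glra3 (-0.24), Gfra2 (-0.027 and -0.014), Camk1d (-0.065) and Ppp1r16b (0.0018), none of them called. Further named genes had such probe sets too. For Fosl2 (-0.13), Rspo2 (-0.039), Lgr4 (-0.22), Ntn4 (-0.29), Unc13b (0.021) and Reln (0.0096) it was the only other probe set, and it was not called. Of 519 other probe sets of called genes, 405 had the sign of the one used and 132 were called with it, and none was called against it. For named genes, 54 of 159 were called.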

Other observations

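All 6 control arrays at P4 had high Xist (10.02 to 11.01) and low Eif2s3y (3.46 to 3.86), so both nuclei matched in these sex-linked genes. Over the series each label shared by a VB and a dLGN array had the same pattern in both. Each of the 24 arrays had either high Xist (10.02 to 11.53) with low Eif2s3y (3.46 to 3.86) or low Xist (6.82 to 7.66) with high Eif2s3y (7.80 to 9.32), although each sample is described as pooled.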
